A study of Mus musculus with 9 samples.

Results

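The genes described here are 10 genes of JAK-STAT signalling in bone marrow LSK cells: the kinase genes Jak1 and Jak2, the transducer genes Stat3, Stat5a and Stat5b, and the feedback or target genes Cish, Socs1, Socs2, Socs3 and Pim1. They were chosen by symbol from a fixed list, and all 10 were found among the 30142 named genes of the arrays, each on 1 probeset with a single symbol. LSK cells are the lineage-negative, Sca-1+, c-Kit+ fraction of bone marrow, which contains blood stem cells and early progenitors. Transcripts were measured from 5 ng of total RNA per mouse, each on its own Affymetrix array. The 4 knockout (KO) mice had the genotype Abi1(-/-);Tg (Mx1-cre(+)), and the 5 wild-type (WT) mice Abi1(fl/fl);Tg (Mx1-cre(-)). All 9 mice received 3 injections of poly(I:C) at 8 to 9 weeks of age, and marrow was taken at 12 to 14 weeks. Poly(I:C) induces interferon, which turns on the Mx1 promoter in many cell types besides LSK cells. Cre was present in the KO mice alone, and its own effect and the loss of Abi1 cannot be told apart. KO against WT addresses how LSK transcripts differ after loss of Abi1, which encodes an adaptor of the actin-branching WAVE complex and a partner of ABL kinases.

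Cytokine receptors without a kinase domain of their own bind Janus kinases (JAKs), which are switched on when ligand brings the receptor chains together. The JAKs phosphorylate receptor tails and STAT proteins, and the STATs pair, enter the nucleus and bind DNA at sites of the general form TTCNNNGAA. Among the genes that STATs switch on are Cish and the Socs genes, whose SH2-domain proteins bind receptors or JAKs and damp the signal, and Pim1, which encodes a survival kinase. In blood progenitor cells, erythropoietin and IL-3 act through JAK2 and STAT5, and the IL-6 family acts through JAK1 and STAT3. The feedback transcripts are therefore often read as a record of recent STAT activity, and they need not follow the transcript levels of the kinases and STATs themselves.

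Promoter windows from RefSeq (build GRCm38.p6), each 300 bases from 250 before to 50 after the annotated start, matched 9 of the 10 genes, the exception being Socs2. The 9-base pattern TTCNNNGAA, which is its own reverse complement and so reads the same on both strands, was found in the windows of 2 genes. These 2 windows are shown, with each match in capitals, because Cish is the gene with the largest difference below and Socs3 is the other feedback gene with a match.
Cish: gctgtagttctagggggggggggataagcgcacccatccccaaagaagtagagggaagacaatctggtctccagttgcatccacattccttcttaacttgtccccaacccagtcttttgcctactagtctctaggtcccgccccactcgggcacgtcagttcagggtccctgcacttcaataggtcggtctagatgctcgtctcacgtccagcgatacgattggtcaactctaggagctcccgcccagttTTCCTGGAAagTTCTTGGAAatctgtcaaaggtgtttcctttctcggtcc
Socs3: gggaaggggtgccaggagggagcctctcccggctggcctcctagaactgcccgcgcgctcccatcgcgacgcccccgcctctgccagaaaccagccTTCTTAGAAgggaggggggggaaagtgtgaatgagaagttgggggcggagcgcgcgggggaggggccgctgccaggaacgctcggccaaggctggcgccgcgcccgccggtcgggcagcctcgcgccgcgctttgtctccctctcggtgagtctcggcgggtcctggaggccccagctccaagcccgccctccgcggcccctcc
The Cish window lies on the plus strand at chr9:107296409-107296708. It held 2 matches with 2 bases between them, TTCCTGGAA at bases 251 to 259 of the window, beginning at the annotated start, and TTCTTGGAA at bases 262 to 270. The Socs3 window lies on the minus strand at chr11:117969317-117969616 and held TTCTTAGAA at bases 97 to 105. At least 1 match was present in 8.30% of all 32851 windows, and at least 2 were present in 0.457%. The windows of Jak1, Jak2, Stat3, Stat5a, Stat5b, Socs1 and Pim1 held no match, which says only that these letters are not in them. A match is a description of the sequence and not evidence of binding.

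Of the 10 genes, 8 lay above the background level in all 9 arrays, where 53.2% of all genes had a mean above it. The level of each array's background was taken from 1717 odorant and vomeronasal receptor genes, as their percentile 95, and was 5.29 to 5.64 in log2 signal. In WT the 5 kinase and STAT genes lay 4.99 to 7.86 above the background on the log2 scale. Pim1 lay 3.76 and Cish 1.57 above it, and Socs2 only 0.55. Socs1 exceeded background in 1 of 9 arrays and Socs3 in 0 of 9, so these 2 feedback transcripts were not well above background and their differences carry little information. The probesets of different genes respond differently to the same amount of RNA, so the order of these values is not an order of transcript amounts.

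The arrays also set limits on what can be compared. Abi1 itself ran from 5.59 to 6.11 in the KO arrays and from 11.49 to 11.65 in the WT arrays, which matches the labels (difference -5.73, limma adjusted p = 7.42e-08). All 10 measured markers of stem and progenitor cells were above background, with a mean log2 signal of 10.35 to 10.61 per KO array and 10.43 to 10.78 per WT array. Ly6a, which encodes Sca-1, was not analysed here, and 4 of the 5 measured T and NK cell markers (Cd3e, Cd3d, Cd4 and Cd8a) were not above background. KO replicate 1 and WT replicate 5 correlated less with the other arrays than the rest did. WT replicate 5 had a mean of 6.70 over the 7 measured erythroid markers, while WT replicates 1 to 4 had 9.43 to 10.84. In a sorted population, fewer cells of a type and less RNA per cell cannot be told apart. Values were deposited with 2 decimals, and 39.6% of all genes and 2 of the 10 genes here repeat a single value on 4 or more of the 9 arrays, which makes the measured spread of such genes small.

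No JAK-STAT gene differed between KO and WT past the threshold. In limma, 0 of the 10 had an adjusted p under 0.05, where 1 of 30142 genes (0.00332%), Abi1, passed. At an unadjusted p under 0.05 limma gave 1 of the 10, Cish, which was higher in KO, where 3.82% of all genes were higher and 1.19% lower at that level. An unadjusted exact permutation p under 0.05 was given to 2 of the 10, Cish and Jak1, where 4.90% of all genes had one. The KO and WT arrays overlapped or met at an equal value for every one of the 10, where 0.856% of all genes had groups that did not overlap and 0.680% had all KO arrays above all WT arrays. Of the 10 genes, 4 had a higher and 6 a lower mean in KO, with a median difference of -0.014 on the log2 scale. Over all genes 63.9% had a higher and 35.4% a lower mean in KO, with a median difference of 0.033. That majority depends on the scaling: 46.5% of all genes had a higher mean with quantile normalization (median -0.0079) and 39.8% with arrays centred on their medians (median -0.023), while 4 of the 10 did in both.

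**Figure D1:**
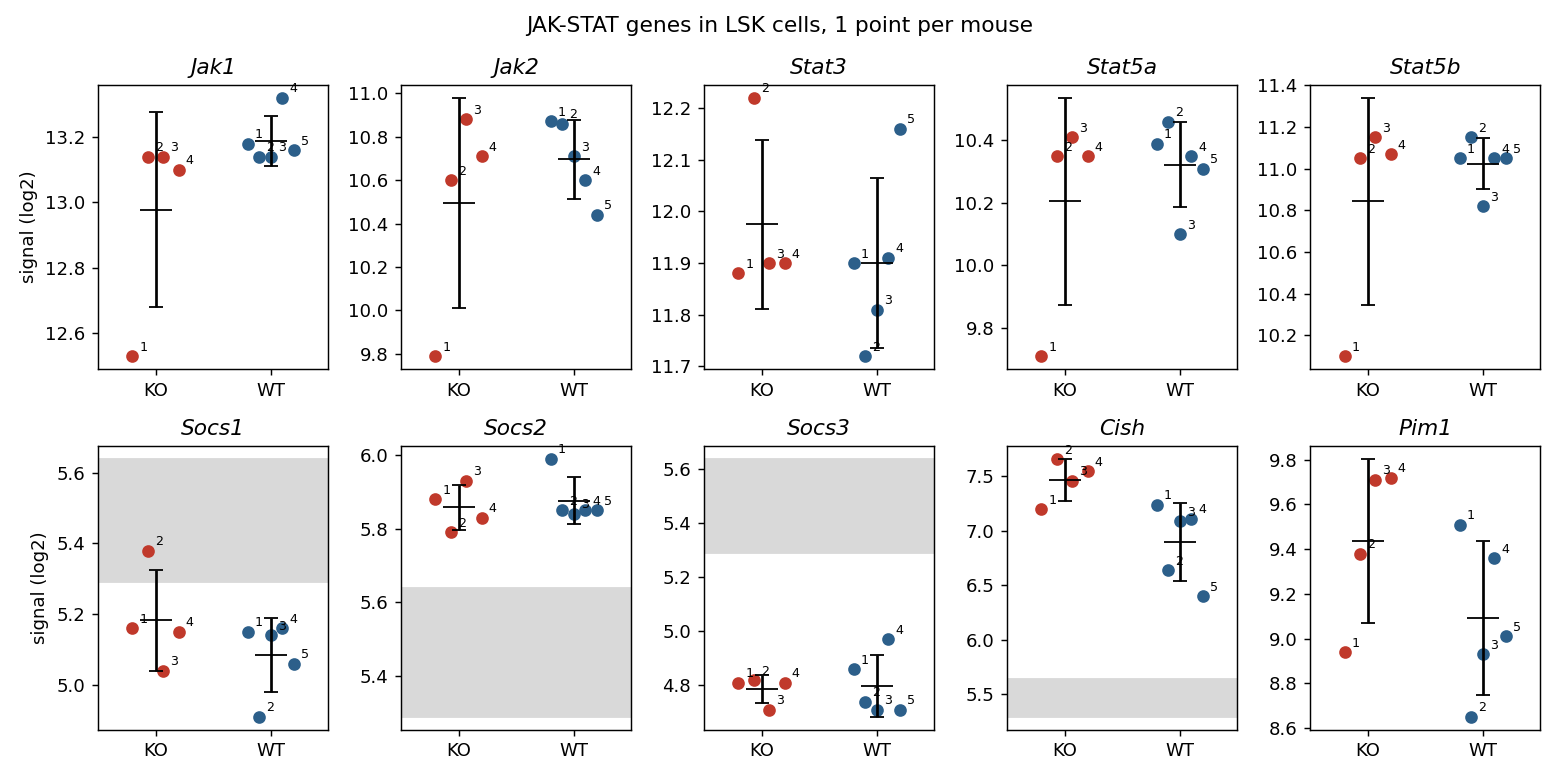
Log2 signal of each of the 10 genes in the KO arrays (red, left) and WT arrays (blue, right), with 1 point per mouse labelled by its replicate number, and the mean with its SD in black. The vertical scales differ between panels, and the grey band is the range of the background level over the 9 arrays (5.29 to 5.64). KO replicate 1 is the lowest array for Jak1, Jak2, Stat5a and Stat5b, and the Cish groups overlap through KO replicate 1 and WT replicate 1 alone.

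Jak1 encodes the kinase shared by the interferon, IL-6 family and common gamma chain receptors. Its log2 signals were 12.53, 13.14, 13.14 and 13.10 in KO, against 13.18, 13.14, 13.14, 13.32 and 13.16 in WT. No KO array lay above the lowest WT value of 13.14, which 2 KO and 2 WT arrays share, and KO replicate 1 lay far below the rest. The difference was -0.21 with a 95% interval from -0.50 to 0.082 (SE 0.13, limma adjusted p = 0.786), and the unadjusted exact two-sided permutation p was 0.0476. Without KO replicate 1 the difference was -0.061, with KO arrays then at 13.10 to 13.14.

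Jak2 encodes the kinase of the erythropoietin and GM-CSF family receptors. It stood at 9.79, 10.60, 10.88 and 10.71 in KO, against 10.87, 10.86, 10.71, 10.60 and 10.44 in WT. KO replicate 1 was again the lowest array, and the other 3 KO arrays lay inside the WT range. The mean difference of -0.20 (95% interval -0.69 to 0.29, limma adjusted p = 0.792) became 0.034 without KO replicate 1.

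The neighbouring paralogues Stat5a and Stat5b encode the STATs that carry erythropoietin and IL-3 signals. Stat5a was 9.71, 10.35, 10.41 and 10.35 in KO, against 10.39, 10.46, 10.10, 10.35 and 10.31 in WT. Stat5b was 10.10, 11.05, 11.15 and 11.07 in KO, against 11.05, 11.15, 10.82, 11.05 and 11.05 in WT. In both genes KO replicate 1 was the lowest of all arrays, WT replicate 3 was the lowest WT array, and the rest lay close together. The differences were -0.12 (95% interval -0.46 to 0.22) for Stat5a and -0.18 (95% interval -0.66 to 0.30) for Stat5b, with limma adjusted p of 0.814 and 0.801. Without KO replicate 1 they were 0.048 and 0.066. Their signals had a Pearson r of 0.98 over the 9 arrays, given as a description. The coding sequences of these genes are much alike, and whether a probe of one binds the transcript of the other was not tested.

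Stat3 encodes the STAT of the IL-6 family and of G-CSF. Its values were 11.88, 12.22, 11.90 and 11.90 in KO, against 11.90, 11.72, 11.81, 11.91 and 12.16 in WT. It was the 1 of the 5 kinase and STAT genes with a higher mean in KO, and the 1 in which KO replicate 1 was not the lowest array. The difference of 0.075 (95% interval -0.16 to 0.31, limma adjusted p = 0.826) rests on KO replicate 2, and was -0.0067 without it.

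The lower KO means of Jak1, Jak2, Stat5a and Stat5b thus moved with a single array. KO replicate 1 was the lowest of all arrays in 4 of the 5 kinase and STAT genes, where 23.0% of the 16023 genes above background had their lowest value in it alone. As a whole, KO replicate 1 had the highest background level, 5.64 against 5.29 to 5.37 in the other arrays. Its median over all genes was also the highest, 5.77 against 5.51 to 5.57. The fewest genes lay above background in it, 15652 against 15876 to 16308. In the same array Kit, the receptor gene of the gate, was 13.82. KO replicates 2 to 4 had 14.53 to 14.58, and the WT arrays 14.39 to 14.78. The 9 mature neutrophil markers, 6 of them above background, averaged 8.34, 8.16, 5.93 and 6.31 in the 4 KO arrays, against 5.51 to 6.77 in WT. The part of these array-wide and marker values in the result was not tested. Without KO replicate 1, 7 of the 10 genes had a higher mean in KO. The share over all genes in that setting is not given, and the median difference of the 16023 genes was 0.016. Jak2, Stat5a and Stat5b were among the 7, at 0.034 (SE 0.12), 0.048 (SE 0.078) and 0.066 (SE 0.072), each less than its SE.

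**Figure D2:**
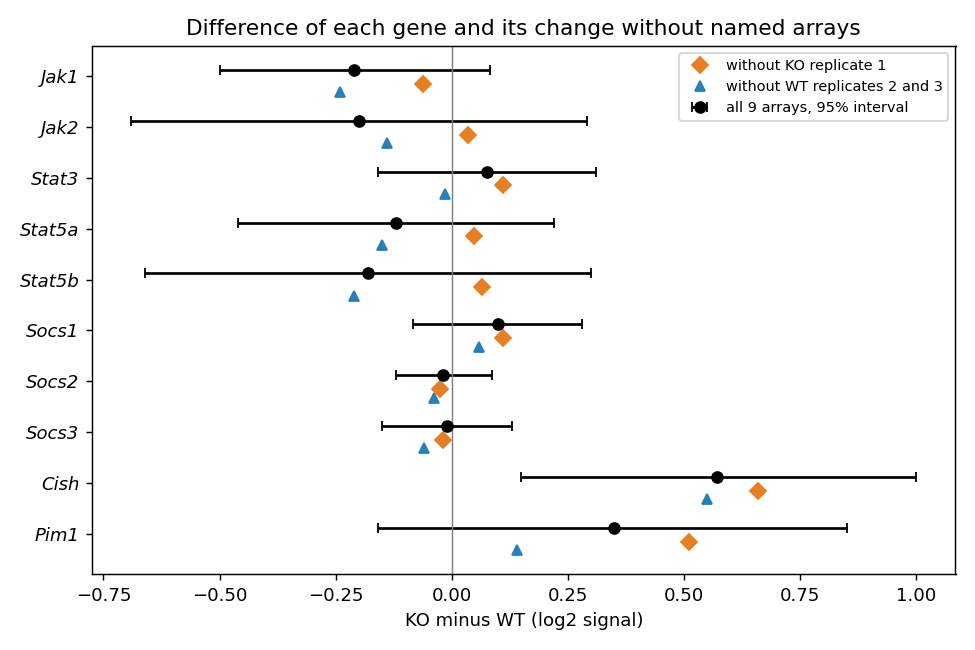
KO minus WT difference in log2 signal for each of the 10 genes, as circles with 95% intervals from limma over all 9 arrays, as diamonds without KO replicate 1 and as triangles without WT replicates 2 and 3. The differences of Jak2, Stat5a and Stat5b change sign without KO replicate 1, and that of Cish stays between 0.55 and 0.66 in the 3 settings shown.

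Cish encodes a feedback inhibitor induced mainly by STAT5, and its mean was the most different of the 10. Its log2 signals were 7.20, 7.66, 7.46 and 7.55 in KO, against 7.24, 6.64, 7.09, 7.11 and 6.40 in WT. The groups overlapped through KO replicate 1 and WT replicate 1 alone, whose values of 7.20 and 7.24 differ by little, and all 4 KO arrays lay above the WT mean of 6.90. The WT arrays varied more, with an SD of 0.36 (n = 5) against 0.20 (n = 4) in KO, and WT replicates 2 and 5 were the lowest. The difference was 0.57 (95% interval 0.15 to 1.0, SE 0.19), a 1.49-fold higher signal in KO with an interval from 1.11 to 1.99. The unadjusted limma p was 0.0143 and the exact two-sided permutation p 0.0317, and the limma adjusted p of 0.786 did not pass. Leaving out each array in turn gave differences from 0.45, without WT replicate 5, to 0.66.

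Pim1 encodes a serine/threonine kinase that promotes survival and is induced by STAT3 and STAT5. It stood at 8.94, 9.38, 9.71 and 9.72 in KO, against 9.51, 8.65, 8.93, 9.36 and 9.01 in WT. KO replicates 3 and 4 were the highest of all arrays and WT replicate 2 the lowest, and KO replicate 1 lay within the lower WT values. The difference was 0.35 (95% interval -0.16 to 0.85, limma adjusted p = 0.786, exact two-sided permutation p = 0.167). It was 0.51 without KO replicate 1 and 0.14 without WT replicates 2 and 3.

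The 3 SOCS genes showed no sizeable difference, and 2 of them were not well above background. Socs2, which encodes the feedback inhibitor of growth hormone receptor signalling and is a STAT5 target, was 5.88, 5.79, 5.93 and 5.83 in KO, against 5.99, 5.85, 5.84, 5.85 and 5.85 in WT. Apart from WT replicate 1 the WT arrays were nearly equal, and the KO arrays spread to either side of them. The difference was -0.018 with a 95% interval from -0.12 to 0.087, so a change the size of that of Cish lies outside the interval, on a probeset close to background. Socs1, whose protein binds and blocks JAKs downstream of interferon, ran from 5.04 to 5.38 in KO and from 4.91 to 5.16 in WT. Socs3, which acts on gp130 and the G-CSF receptor, ran from 4.71 to 4.82 in KO and from 4.71 to 4.97 in WT. Their differences were 0.099 (95% interval -0.083 to 0.28) and -0.010 (95% interval -0.15 to 0.13), and at this signal a change in the transcript may not be detectable.

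Whether the 5 feedback genes move together was read from their 10 pairs over the 9 arrays. Pearson's r was above 0 in 8 pairs, 0.00 in 1 and below 0 in 1, from -0.31 for Socs2 and Socs1 to 0.73 for Cish and Pim1. An unadjusted exact permutation p under 0.05 was reached by 1 pair, Cish and Pim1, and 0 passed adjusted over the 10 pairs. The number of pairs with an r above 0 was 10 with arrays centred on their medians and 6 without WT replicates 2 and 3. For Cish and Pim1 the exact p of r was 0.0251 (adjusted p = 0.251), and Spearman's rho was 0.77 (exact p = 0.0214, adjusted p = 0.143). Without WT replicates 5 and 2, the arrays farthest from the median of Cish, r was 0.63 (exact p = 0.149). With each group's mean removed r was 0.63, and it was 0.66 within the 4 KO arrays and 0.66 within the 5 WT arrays, as a description of these few arrays.

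The other pairs were weaker. Cish and Socs1 had an r of 0.66 (exact p = 0.0550, adjusted p = 0.275), and rho was 0.53 (exact p = 0.146). Socs1 and Socs3, which are not well above background, had an r of 0.44 and a rho of 0.74 (exact p = 0.0285, adjusted p = 0.143). Socs2 did not follow Cish, with an r of 0.00 and a rho of -0.19 (exact p = 0.642). Within the 4 KO arrays r was -0.61 for Cish and Socs2, against 0.50 within the 5 WT arrays.

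Averaged over the 5 feedback genes, each centred on its mean over 9 arrays, the log2 signal was -0.04, 0.17, 0.13 and 0.18 in KO, against 0.11, -0.28, -0.09, 0.05 and -0.23 in WT. Over the 5 kinase and STAT genes it was -0.57, 0.10, 0.13 and 0.06 in KO, against 0.11, 0.10, -0.05, 0.08 and 0.05 in WT. WT replicates 2 and 5 were low for the feedback genes and not for the kinases and STATs, and KO replicate 1 was low for the kinases and STATs. Feedback minus kinase and STAT was 0.53, 0.07, 0.01 and 0.12 in KO, against 0.00, -0.38, -0.04, -0.02 and -0.29 in WT. Cish and Pim1 have the widest range of the 5 feedback genes and dominate this average, and no test was made of it.

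**Figure D3:**
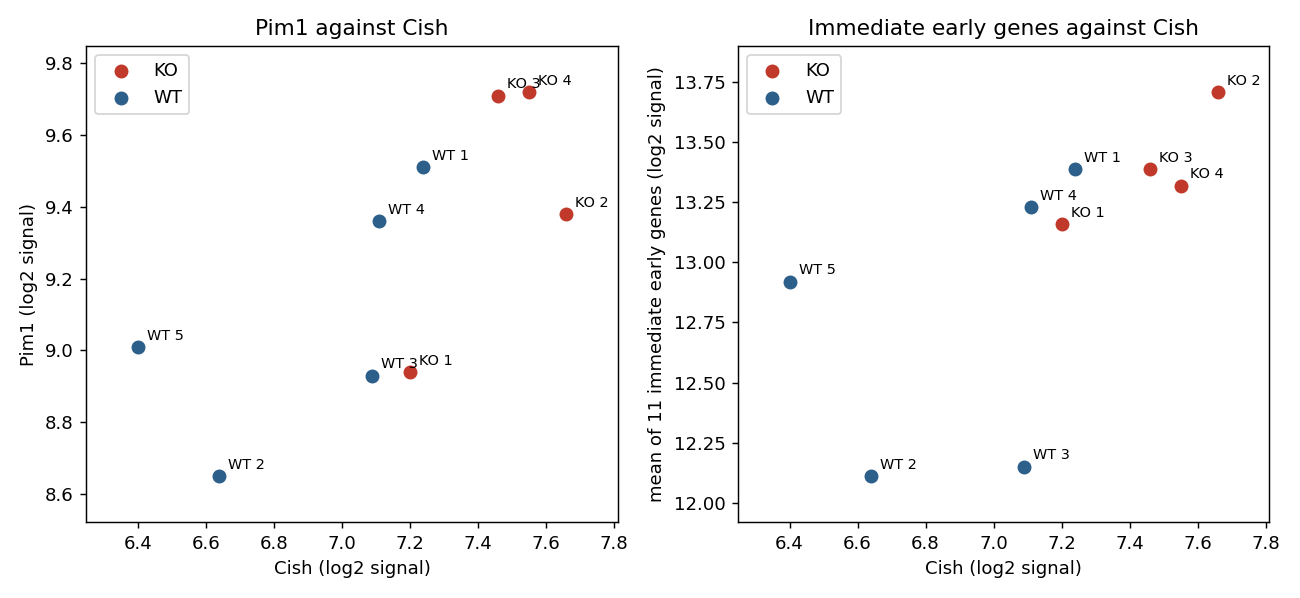
Log2 signal of Pim1 (left) and the mean log2 signal of 11 immediate early genes (right) against that of Cish, with 1 point per array, KO in red and WT in blue. The arrays low in Cish, WT replicates 2 and 5, are also among the lower ones in Pim1, and WT replicates 2 and 3 stand apart in the immediate early genes at 12.11 and 12.15.

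Genes switched on within minutes of a stimulus moved in some of the same arrays. The 11 measured immediate early genes, all of them above background, averaged 13.16 to 13.71 in the KO arrays and 12.11 to 13.39 in the WT arrays. WT replicates 2 and 3 had 12.11 and 12.15, and Pim1 was 8.65 and 8.93 in them. WT replicate 5, the array with the lowest Cish signal, had 12.92 and stood lowest in erythroid, megakaryocyte and mast cell markers. The 8 mast cell and basophil markers, all above background, averaged 9.17 to 9.62 in the KO arrays and 7.70 to 9.44 in the WT arrays. All 11 immediate early genes and all 8 mast cell and basophil markers had a higher mean in KO (median differences 0.53 and 0.66). An unadjusted limma p under 0.05 was given to 4 and 3 of them, and 0 passed adjusted. Of genes above background, 54.3% had a higher mean in KO and 5.01% were higher at that unadjusted level. The part of these marker and immediate early genes in the Cish and Pim1 values was not tested. Without WT replicates 2 and 3 the difference of Cish was 0.55 (limma adjusted p = 0.756), and without KO replicate 1 and WT replicate 5 it was 0.54 (limma adjusted p = 0.901). Without WT replicate 5 alone it was 0.45, and the difference of Pim1 without WT replicates 2 and 3 was 0.14, against 0.35 over all arrays.

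The genes whose signal over the 9 arrays was most like the mean of the 5 feedback genes, among 8056 genes outside the lists used here that lay above background in both groups and had an SD of at least 0.2, were Mcpt4 (r = 0.950), Rhob (0.948), Herpud1 (0.908), Isca1 (0.886) and Ceacam1 (0.881). For Cish alone they were Ceacam1 (0.954), Dnajb9 (0.938) and Cited2 (0.934), and for Pim1 Rhob (0.934), Tram1 (0.866) and Ppp1r15a (0.856). Rhob had mean log2 signals of 15.22 in KO and 14.46 in WT, and Ceacam1 8.16 in KO and 7.80 in WT. For Socs2 the highest r was 0.857 (Gm23908), for Socs1 0.902 (Tmub1) and for Socs3 0.913 (Gm16205). The highest r among so many genes is high by selection, and no p is given.

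Targets of STATs outside the 10 genes were compared next, from lists of the pathway. Of 21 listed STAT target genes 19 were measured, and 15 had a higher and 4 a lower mean in KO, with a median difference of 0.17, against 0.018 over the 16023 genes above background, 54.3% of which had a higher and 45.5% a lower mean in KO. Of these 19 genes 0 passed in limma over all genes, and 4 had an unadjusted p under 0.05, all higher in KO. Of genes above background 5.01% were higher at that level, and 6.93% differed in either direction. Over the alternatives the count at that level ran from 1, without WT replicates 2 and 3 or with the replicate number as a block, to 6, without WT replicate 1 or WT replicate 4. It was 2 without KO replicate 1, KO replicate 2 or WT replicate 2 and with arrays centred on their medians. The number with a higher mean ran from 12 of the 19, with arrays centred on their medians, to 16. With that centring 39.8% of all genes had a higher mean. Fos stands in both this list and that of the immediate early genes.

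The 4 genes were Cd69, Irf1, Myc and Cdkn1a, each with a limma adjusted p of 0.786. Irf1 had 2 probesets, of which the brighter was used, and Cd69, Myc and Cdkn1a had 1 each. With the mean of all probesets of a gene the count at an unadjusted p under 0.05 was 3. Cd69, an early activation antigen, ran from 15.06 to 15.59 in KO and from 13.80 to 15.42 in WT, a difference of 0.94 (SE 0.32). Irf1, an interferon-induced transcription factor gene, was 8.87, 9.31, 9.07 and 8.80 in KO, against 8.74, 8.65, 8.52, 8.57 and 8.87 in WT, a difference of 0.34 (SE 0.12). The groups of Irf1 overlapped through WT replicate 5. Myc, a driver of growth, differed by 0.20 (SE 0.076), with 13.67 in KO replicate 3 and in 3 WT arrays. Cdkn1a, which encodes the cell cycle inhibitor p21, differed by 0.97 (SE 0.42) and ran from 12.37 to 13.59 in KO and from 10.91 to 12.93 in WT. The largest difference in the list, chosen here after its values were seen, was that of Id1 at 1.40 (SE 0.62), with KO arrays at 8.93 to 10.63 and WT replicate 2 at 6.69. Without WT replicates 2 and 3 the differences of Cd69, Cdkn1a and Id1 were 0.55, 0.48 and 0.66. Spred1, a brake on RAS signalling, had the smallest p among the lower ones, with a difference of -0.082.

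**Figure D4:**
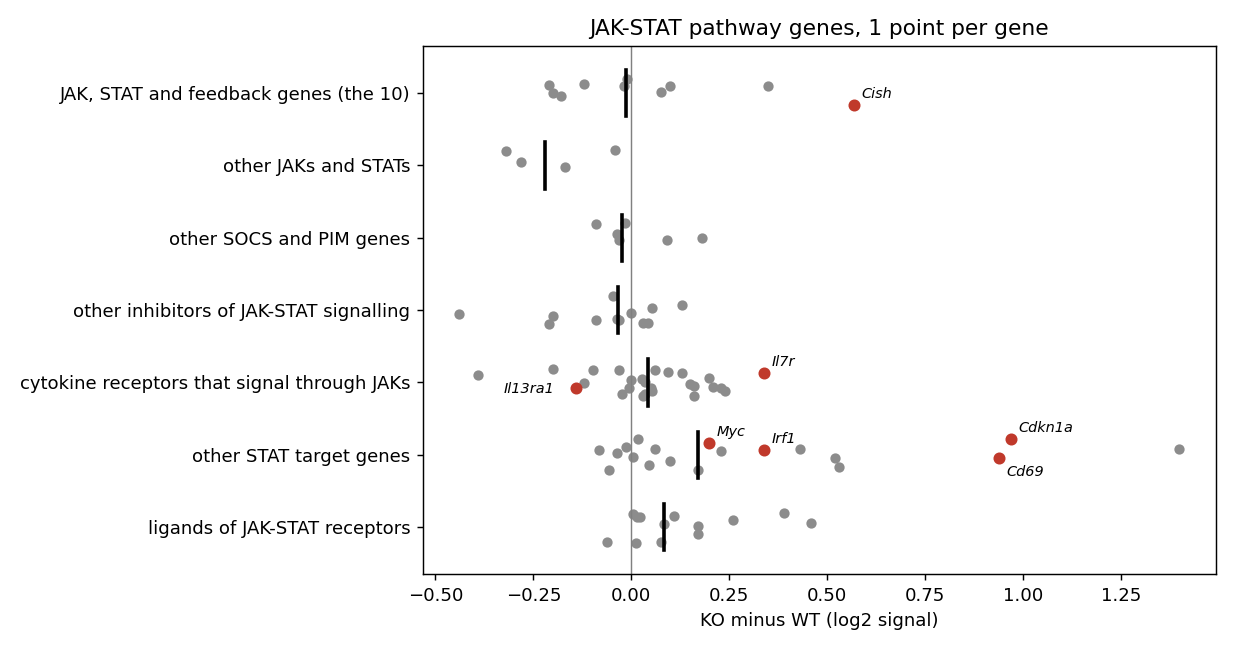
KO minus WT difference in log2 signal for each measured gene of 7 JAK-STAT lists, with 1 point per gene, the list median as a black bar, and genes with an unadjusted limma p under 0.05 in red and named. The medians run from -0.22 for the other JAKs and STATs to 0.17 for the STAT targets, and no gene shown passes the adjusted threshold.

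Among the other JAK and STAT genes, all 4 measured genes, Tyk2, Stat2, Stat4 and Stat6, had lower means in KO, from -0.32 to -0.041, and 0 had an unadjusted p under 0.05. Tyk2, a kinase of interferon and IL-12 receptors, was 7.72, 8.60, 8.60 and 8.60 in KO, against 8.63, 8.79, 8.44, 8.82 and 8.60 in WT. KO replicate 1 was the lowest array for Tyk2, Stat2, Stat4 and Stat6, and without it 2 of the 4 had a higher mean in KO. Stat4, which carries IL-12 signals, had the smallest p, with a difference of -0.32 (SE 0.21) and WT replicate 5 highest at 12.05. Its difference was -0.19 without KO replicate 1, -0.037 without KO replicate 1 and WT replicate 5, and -0.55 without WT replicates 2 and 3, where it was the 1 gene of the list with an unadjusted p under 0.05. Jak3 was not analysed here.

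No other SOCS gene, PIM gene or inhibitor passed the adjusted threshold. Of the other SOCS and PIM genes, 2 of 6 had higher and 4 lower means in KO, with differences from -0.091 (Socs5) to 0.18 (Pim2) and 0 at an unadjusted p under 0.05. Pim2, a paralogue of Pim1, ran from 7.46 to 8.02 in KO and from 7.16 to 8.00 in WT. Among 12 further genes of inhibitors and modulators of the pathway, such as phosphatases and PIAS proteins, 4 had higher and 7 lower means and Pias3 held the value 7.10 in all 9 arrays. With arrays centred on their medians, 1 of the 12 had a higher mean. Their smallest p in each direction belonged to Ptpn1, a phosphatase of JAK2, at 0.043, and Cbl, a ubiquitin ligase of activated receptors, at -0.44 (SE 0.24). Cbl had 2 probesets, of which the brighter was used. That probeset ran from 14.61 to 15.40 in KO and from 14.97 to 15.94 in WT, and its difference was -0.60 with quantile normalization (limma adjusted p = 0.821).

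Cytokine receptor genes and ligand genes were measured in part. Of 32 receptor genes 26 were measured, 19 of them above background, and 17 had higher and 8 lower means in KO (median difference 0.043). Those with an unadjusted p under 0.05 were Il7r, the IL-7 receptor gene of lymphoid progenitors, and Il13ra1, which was not above background, 2 of 26 where 5.01% of all genes had one. That count ran from 1 to 4 over the alternatives. Il7r was 6.13, 5.79, 5.60 and 5.80 in KO, against 5.27, 5.39, 5.61, 5.64 and 5.52 in WT, a difference of 0.34 (SE 0.12, limma adjusted p = 0.786), close to background. The 7 measured B cell markers, 3 of them above background (Pax5, Vpreb3, Igll1 and Ms4a1 were not), averaged 5.68 to 5.79 in the KO arrays and 5.34 to 5.54 in the WT arrays. All 7 had a higher mean in KO, and 4 had an unadjusted limma p under 0.05, where 3.82% of all genes were higher at that level. These 4 were Ebf1 and Cd79b, and Igll1 and Vpreb3, which were not above background. After adjustment 0 passed (smallest limma adjusted p = 0.438), and the part of the B cell markers in the Il7r values was not tested. For Il7r, KO replicates 1, 2 and 4 lay above all WT arrays and KO replicate 3 within them. Epor, the erythropoietin receptor gene, was 7.69, 8.88, 9.68 and 9.31 in KO, against 9.39, 9.79, 9.11, 8.73 and 7.25 in WT. Csf2rb was not analysed here. Of 13 measured ligand genes 4 were above background, 12 had higher and 1 a lower mean, and 0 had an unadjusted p under 0.05. The smallest p in each direction belonged to Tslp, with a difference of 0.39 (SE 0.20), and Lif, with a difference of -0.061. Over all genes 63.9% had a higher mean, and for the ligands the count was 8 of 13 with quantile normalization or centring, and 3 with dim genes left out.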

How the data were processed

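LSK cells of 4 KO and 5 WT mice were sorted from marrow, and amplified RNA of each mouse was hybridised to 1 array, per the labels' protocols. The deposited values, 72688 probesets by 9 arrays from 1.84 to 19.45, are the authors' processed signals, and they were read as log2. Partek 6.6 is named in the submitters' processing notes. How the authors corrected background and normalized, and the log base, is not given in the sources used here, so every fold rests on the log2 reading. Each replicate is a different mouse, and the labels name no batch.

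Probesets with exactly 1 symbol in the platform annotation were named, with 827 symbols updated to RefSeq GRCm38.p6, and the brightest by mean over 9 arrays stood for a gene. The KO minus WT contrast was fitted without covariates by limma (version 3.58.1, R 4.3.3) on 30142 genes, and p-values were adjusted over them by the Benjamini-Hochberg method (threshold 0.05). Single values were also tested by exact two-sided permutation over 126 splits, whose smallest p is 0.00794, and correlations by exact permutation of all pairings. Precision is limited by having 9 arrays, and genes above background had a median SE of 0.12 for the difference. The fit was also run on simulated data, and how small a difference it can detect is not given here.

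The 10 genes, the lists and the alternatives were chosen with earlier results of these data known. Besides the 10 genes, the text names list members with an unadjusted p under 0.05, the smallest p per direction in each list, and the genes most alike, plus Kit and Abi1 as checks. Other genes named, such as Id1, Fos, Pias3, Epor, Tyk2 and Rhob's values, are examples chosen after their values were seen. Alternatives were quantile normalization, median centring, leaving out dim genes, the mean of probesets, trended and robust moderation, a replicate block and leaving out arrays.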

Additional observations from a re-analysis of the deposited data

Results flagged for a closer look

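Within the 4 KO or 5 WT arrays, 12 values lay far from the rest of their group by Dixon's test at the 95% level, among 48 groups of 24 genes. Chance flags about 1 in 20 groups, and genes whose other arrays hold equal values are flagged by small gaps. KO replicate 1 was low for Jak1 at 12.53 (other KO arrays 13.10 to 13.14), for Stat5a at 9.71 (10.35 to 10.41) and for Stat5b at 10.10 (11.05 to 11.15), and high for Tslp at 6.58 (5.99 in all others). KO replicate 2 was high for Stat3 at 12.22 (11.88 to 11.90). KO replicate 3 was low for Socs3 at 4.71 (4.81 to 4.82) and for Lif at 5.43 (5.53 to 5.55), and high for Ptpn1 at 9.15 (9.09 in all others). KO replicate 4 was low for Socs5 at 5.98 (6.04 in all others). In WT, replicate 4 was high for Jak1 at 13.32 (13.14 to 13.18), replicate 1 was high for Socs2 at 5.99 (5.84 to 5.85), and replicate 3 was low for Ptpn1 at 8.95 (9.09 in all others).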

How the results depend on the processing

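Over 168 combinations of the 10 genes with an alternative, 0 passed an adjusted p of 0.05 (smallest 0.665, shared by Cish, Jak1, Jak2, Stat5b and Socs1 without KO replicate 3) and 12 turned the sign of the difference. The causes were not tested, beyond the arrays left out. Leaving out 1 array at a time gave differences from -0.33 to 0.034 for Jak2, -0.0067 to 0.14 for Stat3, -0.19 to 0.048 for Stat5a, -0.28 to 0.066 for Stat5b, -0.043 to 0.010 for Socs2 and -0.033 to 0.032 for Socs3. Cish kept its sign in all alternatives, at 0.45 to 0.66 (adjusted p = 0.665 to 0.964). Without KO replicate 1 and WT replicate 5 the differences of Stat5a and Stat5b were 0.045 and 0.072, and without WT replicates 2 and 3 that of Stat3 was -0.015. The r of Cish and Pim1 ran from 0.63 to 0.80 with 1 array left out, and lost an exact p under 0.05 without KO replicate 3, KO replicate 4 or WT replicate 2 (exact p = 0.0525, 0.0661 and 0.0782). Without WT replicates 2 and 3 it was 0.66 (exact p = 0.103), and 0 of 10 pairs then reached an exact p under 0.05, against 0 to 1 pairs with 1 array left out. The count of all genes at an unadjusted p under 0.05 was 1509, 955 with dim genes left out because fewer genes were tested, and 1005 (without WT replicate 4) to 1924 with 1 array left out. Of the 1509, 76.2% were higher in KO, 51.1% with quantile normalization and 52.8% with each array centred on its median. Centring also left 11 of 26 receptor genes with a higher mean, in place of 17.

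Deviations from the group means correlated at -0.137, 0.138, -0.011 and 0.231 between same-numbered KO and WT arrays (replicates 1 to 4). Differently numbered arrays were not compared, so whether the numbers pair the mice is not settled by these values. With the replicate number as a block, on replicates 1 to 4, the difference of Cish was 0.45 (limma adjusted p = 0.810), 0 of the 10 genes had an unadjusted p under 0.05, and 1449 of all genes did.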

Other observations

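Genes whose promoter window held the STAT pattern TTCNNNGAA were set beside all genes with a window, as a description with no test. With at least 1 match, 380 of 808 genes above background (47.0%) had a higher mean in KO, and the median difference was -0.0082. Over all 9559 genes above background with a window the values were 47.8% and -0.0065. With at least 2 matches, as in Cish, 19 of 43 genes (44.2%) had a higher mean, with a median difference of -0.038. Of these 43, 8 (18.6%) had an unadjusted limma p under 0.05, 5 higher and 3 lower, and 0 had an adjusted p under 0.05. Of the 9559 genes above background with a window, 5.30% had an unadjusted limma p under 0.05. These 8, named after their values were seen, ran from -0.27 for Strada and D730005E14Rik to 0.67 for Gdpd1. Cish is itself 1 of the 8, and the group with at least 2 matches was set out with the difference of Cish known. A link between the pattern and the differences was therefore not tested.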
